A study of Mus musculus with 4 samples.

Results

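Neat1, Malat1, Meg3, Miat, Rian, Mirg and Snhg11 are long noncoding RNA genes, and their levels were followed in spinal cord RNA from mice at postnatal day 8. They were chosen by name, with their values in these libraries already known. They are 7 of 21249 genes, counted as gene sums, that is, the deposited values of all transcripts of at least 300 bases added up for each gene symbol. The values are FPKM, fragments per kilobase of transcript scaled to the mapped depth of the library, which allow levels to be compared between genes of different length. The RNAs of 2 cKO libraries (Chd7f/f; Olig1-cre) were set against those of 2 Ctrl libraries (Chd7f/+; Olig1-cre). In both groups Olig1, which is active in oligodendrocytes and their precursors, drove Cre recombinase, and both carried a floxed allele of Chd7, a chromatin remodeler gene. The Ctrl animals kept 1 unfloxed allele, the strain background was mixed, and cells outside the Olig1 lineage keep Chd7 in both groups. The labels do not say whether each library came from a separate animal, so the errors cover the spread between these libraries, which may be technical. An SD below is that of the gene itself. The SE of a log2 difference comes from the limma fit described below and is mostly pooled over genes.

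Long noncoding RNAs act in the nucleus in several ways. Neat1 is the scaffold on which proteins of the nucleus assemble into paraspeckles, and Malat1 accumulates in nuclear speckles, where splicing factors are stored. Meg3, Rian and Mirg are transcribed from the maternal chromosome of the imprinted Dlk1-Dio3 domain, and Rian and Mirg host small nucleolar RNAs and microRNAs. Miat, also called Gomafu, is a nuclear RNA best known from neurons that binds splicing factors through a repeated motif. Snhg11 is a host gene of small nucleolar RNAs with high levels in brain. Of the 10 transcripts behind these 7 genes, 9 have a noncoding RefSeq accession, and the transcript of Snhg11 (NM_175692) has a protein-coding one.

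Neat1 and Malat1 lie side by side and end in unusual ways, and these ends are shown because a library of polyadenylated RNA may hold them in part. Both the long Neat1 transcript and Malat1 are known to be cut by RNase P rather than polyadenylated, and their ends are protected by a triple helix of U-rich and A-rich stretches. The labels name a TruSeq RNA kit and do not say how RNA was selected; such kits are known to select polyadenylated RNA, and how well these ends were recovered was not tested. The ends below come from GENCODE M21 transcripts on GRCm38, all on the minus strand and written 5′ to 3′. In the short Neat1 transcript (chr19:5842307-5842406) the capitals mark the polyadenylation signal AATAAA. In the long Neat1 transcript (chr19:5824708-5824807) and in Malat1 (chr19:5795921-5796081) they mark the 3 runs of at least 11 bases that both ends share, TTTCTTTTCCTGA and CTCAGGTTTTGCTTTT, which hold the U-rich stretches, and the A-rich AAAAAGCAAAA, and the Malat1 sequence runs on into the tRNA-like RNA that is cut off.
Neat1 short transcript: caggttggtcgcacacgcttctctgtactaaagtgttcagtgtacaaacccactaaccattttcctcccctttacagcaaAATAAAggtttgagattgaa
Neat1 long transcript: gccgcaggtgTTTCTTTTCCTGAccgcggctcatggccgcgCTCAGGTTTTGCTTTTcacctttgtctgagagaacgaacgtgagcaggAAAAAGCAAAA
Malat1: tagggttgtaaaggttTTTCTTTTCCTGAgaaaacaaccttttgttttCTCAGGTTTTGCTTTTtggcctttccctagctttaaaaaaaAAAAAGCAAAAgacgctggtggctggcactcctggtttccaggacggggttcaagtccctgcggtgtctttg

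The 3 runs, searched on the transcribed strand in this order and with at most 60 bases between neighbours, were found in 2 of 141767 transcripts (0.00141%), the long Neat1 transcript and Malat1. The letters of the runs were read from these same RNAs, so the match describes what the pair shares and is not independent evidence. Among the 9101 transcripts classed as lincRNA the share was 0.022%. The deposited tables measure Neat1 by a single transcript of 3177 bases (NR_003513), the stretch that the short and long forms share. The 20771 bases of the long GENCODE transcript are not a row of their own, so the forms cannot be told apart in the Neat1 values.

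Miat carries copies of a sequence that resembles the intron branch point. The Miat transcript of 8758 bases holds TACTAAC at 6 places and the shorter ACTAAC, which includes them, at 11, counted on the transcribed strand. Of 773 transcripts of 8000 to 9500 bases, 154 (19.9%) held TACTAAC at least 1 time and 2 (0.259%), both of Miat, held it 6 times or more. The stretch with 3 of the copies (chr5:112216723-112216822, minus strand, GRCm38) is shown because the splicing factors SF1 and QK, described below with their levels, are known to bind such letters; capitals mark TACTAAC.
Miat: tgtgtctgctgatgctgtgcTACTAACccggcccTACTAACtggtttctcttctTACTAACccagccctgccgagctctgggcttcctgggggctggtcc

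For the libraries as a whole, the ratio of coverage to FPKM gave relative depths of 2.22 and 3.19 in cKO and 2.07 and 1.0 in Ctrl, with read totals not given. Chd7 measured 2.52 and 3.38 FPKM in cKO, against 3.52 and 3.12 FPKM in Ctrl, which checks the genotypes little, since the floxed part is not measured on its own and many cord cells lie outside the Olig1 lineage. Every listed marker of neurons, oligodendrocytes, their precursors, astrocytes, microglia and endothelium reached a mean of 1 FPKM in these cords. Markers of meninges and fibroblasts stood out in Ctrl 1, where 6 of them summed to 255 FPKM, against 54.7 FPKM in Ctrl 2, with 31.5 and 34.4 FPKM in cKO 1 and cKO 2. Xist, the X-inactivation RNA, measured 19.6 and 0.233 FPKM in cKO, against 55.6 and 51.8 FPKM in Ctrl. The libraries thus differ in a noncoding RNA of female cells, and the labels give no sex. In the limma test described below, 4.13% of all genes rose and 6.54% fell. Of 6 astrocyte markers 1 rose and none fell (1 higher and 2 lower at an unadjusted p below 0.05), with a median log2 difference of -0.21. They summed to 800.2 and 1297 FPKM in cKO, against 1370 and 1493 FPKM in Ctrl. Gfap held a large part of these sums, at 351 and 723 FPKM in cKO, against 758 and 938 FPKM in Ctrl. Of the 6 astrocyte markers, 4 had a log2 difference below 0 and 2 above 0. Of 6 microglia markers 1 rose and 3 fell (1 without cKO 2), and of 4 endothelium markers none passed (1 lower at an unadjusted p below 0.05). Of 4 blood markers 2 rose and 2 fell. Both that fell, Alas2 and Hbb-b1, overlapped between the groups and were high in Ctrl 2 alone, at 4.27 and 24.5 FPKM; without Ctrl 2 none fell and 3 rose.

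The 7 RNAs spanned a wide range of levels, and the order was nearly the same in every library. Meg3 stood first, Malat1, Miat and Mirg followed Snhg11 and Rian in that order, and Neat1 came last, in all 4 libraries. Snhg11 and Rian changed places, with Rian above Snhg11 in cKO 1 and below it in the other libraries. Of 12913 genes with a mean of at least 1 FPKM, Meg3 ranked 67 by mean level, Rian 168, Snhg11 171, Malat1 383, Miat 1418, Mirg 3753 and Neat1 6943. Together the 7 genes summed to 1173 and 1293 FPKM in cKO 1 and cKO 2, against 1256 and 1097 FPKM in Ctrl 1 and Ctrl 2. These sums made up 0.323% and 0.392% of all gene sums in the cKO libraries, against 0.381% and 0.314% in the Ctrl libraries.

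**Figure D1:**
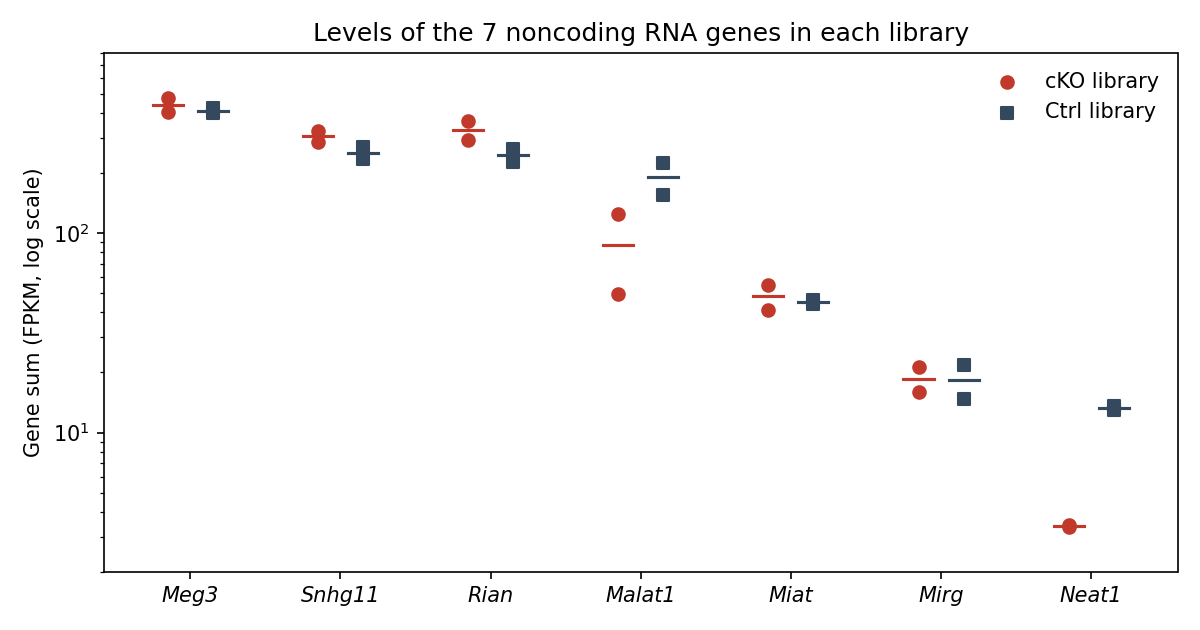
Gene sums in FPKM on a log scale for the 7 genes, with cKO libraries as circles left of Ctrl libraries as squares and the mean of each group as a bar (n = 2 each). Neat1 sits at 3.37 and 3.42 FPKM in the cKO libraries, below 12.9 and 13.6 FPKM in the Ctrl libraries, while the symbols of Meg3, Miat and Mirg overlap.

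All 7 genes passed the mean of 1 FPKM. In 4 of them the cKO and Ctrl libraries did not overlap, 2 with higher and 2 with lower values in cKO. Over all 12913 genes the groups did not overlap in 53.5%, with 24.3% higher and 29.3% lower in cKO. Because the members were named with these values in view, their differences are described without a test and nothing is read from these shares. The median log2 difference, cKO minus Ctrl on log2(FPKM + 1), was 0.07 over the 7 genes and -0.003 over all genes.

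Neat1 was the lowest of the set and differed most. It measured 3.42 and 3.37 FPKM in cKO 1 and cKO 2, against 13.6 and 12.9 FPKM in Ctrl 1 and Ctrl 2 (chromosome 19, 5842302 to 5845478 on mm9, the build of the deposited tables). Both cKO libraries lay well below both Ctrl libraries, and libraries of 1 group differed by little, with ratios of 1.02 between the cKO libraries and 1.05 between the Ctrl libraries. The means were 3.39 ± 0.0365 FPKM in cKO and 13.3 ± 0.461 FPKM in Ctrl (SD, n = 2 each), 3.91-fold lower in cKO. On the log2(FPKM + 1) scale the difference was -1.70 ± 0.15 (SE), and 18 of the 12913 gene sums had a difference as low or lower, Neat1 included. This SE is mostly pooled over genes, and the SD of Neat1 itself within groups was 0.034 on this scale. Neat1 was the only one of the 7 whose cKO libraries were both beyond both Ctrl libraries by at least 1.5-fold, a size that 2.84% of all genes reached downward and 0.991% upward. The mean depth per base over the transcript was 5.44 and 7.70 in the cKO libraries and 20.2 and 9.27 in the Ctrl libraries, the lowest of the 7 genes in each library apart from the minor Miat transcript.

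Malat1 was lower in cKO as well, with a wide spread. It measured 49.5 and 124 FPKM in cKO 1 and cKO 2, against 225 and 156 FPKM in Ctrl 1 and Ctrl 2 (chromosome 19, 5795690 to 5802671 on mm9). The groups did not overlap, but cKO 2 lay closer to Ctrl 2 than to cKO 1 in FPKM. The means were 87.0 ± 53.0 FPKM in cKO and 190 ± 49.3 FPKM in Ctrl (SD, n = 2 each), 2.19-fold lower in cKO, with a log2 difference of -1.24 ± 0.25 (SE). This SE is mostly pooled over genes and understates the spread of Malat1. The SD of Malat1 itself within groups was 0.71 on the log2 scale. The difference was -0.59 without cKO 1 and -1.90 without cKO 2, so its size depends on the cKO library. Its direction could not change, because the groups did not overlap. A log2 difference as low as that of Malat1 was found in 50 gene sums.

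The pair did not keep a fixed ratio. Neat1 amounted to 0.0691 of Malat1 in cKO 1 and 0.0270 in cKO 2, against 0.0603 in Ctrl 1 and 0.0831 in Ctrl 2, so the cKO libraries lay on both sides of Ctrl 1. In bulk tissue, fewer cells of a type and less RNA per cell cannot be told apart, for these and all later values. Markers of myelinating oligodendrocytes differed in the same direction as Neat1 and Malat1: the 12 listed markers summed to 6772 and 10650 FPKM in cKO 1 and cKO 2, against 16710 and 18970 FPKM in Ctrl 1 and Ctrl 2, none was at 0, and 11 of the 12 fell in the limma test described below (8 when any 1 of Ctrl 1, Ctrl 2 and cKO 1 was left out). Of 5 markers of oligodendrocyte precursors, which summed to 125 and 154 FPKM in cKO against 224 and 240 FPKM in Ctrl, 2 fell, Gpr17 and Olig2 (Olig2 not without Ctrl 2 or cKO 1). The other 3, Pdgfra, Cspg4 and Ptprz1, had differences from 0.13 to 0.26 and did not pass, so the median of the list was 0.13 and its lower sum comes mostly from Gpr17. Beside these counts, 6.54% of all genes fell. As with Malat1, the sum of the myelinating oligodendrocyte markers was lowest in cKO 1. The part of these cells in the Neat1 and Malat1 values was not tested.

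Meg3, the most abundant of the set and the first gene of the maternal transcripts of its domain, overlapped between the groups. It measured 407 and 475 FPKM in cKO 1 and cKO 2, against 423 and 399 FPKM in Ctrl 1 and Ctrl 2 (chromosome 12, 110779206 to 110809939 on mm9). Both Ctrl libraries lay below cKO 2 and on either side of cKO 1. The means were 441 ± 48.4 FPKM in cKO and 411 ± 17.3 FPKM in Ctrl (SD, n = 2 each), and the log2 difference of 0.10 ± 0.24 (SE) became -0.01 without cKO 2.

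Behind the overlapping Meg3 sums, the transcripts had different shares. The shortest, NR_027652 of 1913 bases, measured 137 and 148 FPKM in cKO 1 and cKO 2, against 78.6 and 103 FPKM in Ctrl 1 and Ctrl 2. It made up 33.7% and 31.1% of the Meg3 sum in cKO, against 18.6% and 26.0% in Ctrl, and the groups did not overlap. The long NR_027651 of 11410 bases, which starts at the same base, measured 136 and 143 FPKM in cKO, against 187 and 149 FPKM in Ctrl. Its share was 33.5% and 30.1% in cKO, against 44.3% and 37.3% in Ctrl, again without overlap and in the opposite direction. NR_003633 of 11422 bases, which starts farther along the gene, measured 133 and 184 FPKM in cKO, against 157 and 146 FPKM in Ctrl, and its share overlapped, at 32.7% and 38.8% in cKO and 37.2% and 36.7% in Ctrl. The mean of the shortest transcript was 1.57-fold higher in cKO, at 143 ± 7.63 FPKM against 91.0 ± 17.6 FPKM (SD, n = 2 each). The shares of a library add up to the whole Meg3 sum, so a higher share of 1 transcript and a lower share of another are not separate observations. How often transcript shares of other genes do not overlap was not counted. The transcripts share exons, so the division of reads among them is an estimate.

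**Figure D2:**
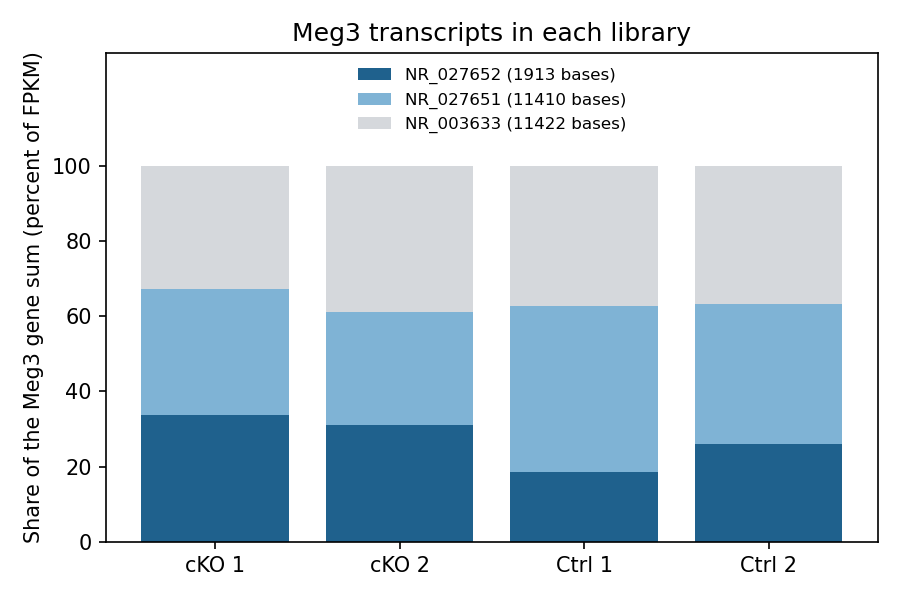
Share of the Meg3 gene sum (percent of FPKM) taken by each of its 3 transcripts, 1 bar per library with cKO left of Ctrl. The 1913-base transcript takes 33.7% and 31.1% in cKO 1 and cKO 2, against 18.6% and 26.0% in Ctrl 1 and Ctrl 2.

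The start shared by NR_027651 and NR_027652 is the annotated main start of Meg3. RefSeq promoter windows of 250 bases before to 50 after a start, on GRCm38.p6, were found for 6 of the 7 genes. Neat1 had no window and was not searched. The 7 windows of the other genes were searched on both strands for TGACGTCA (the cAMP response element), TATAAA (the TATA box), CACGTG (an E-box) and AACAAT (a core of Sox motifs). The Meg3 window at chr12:109540746-109541045, plus strand, is shown because it alone held any of the 4: 1 TGACGTCA and 2 overlapping TATAAA, 1 on each strand, in capitals. Of all 32851 windows, 1.79% held TGACGTCA, 13.6% TATAAA, 7.15% CACGTG and 10.7% AACAAT.
Meg3 promoter: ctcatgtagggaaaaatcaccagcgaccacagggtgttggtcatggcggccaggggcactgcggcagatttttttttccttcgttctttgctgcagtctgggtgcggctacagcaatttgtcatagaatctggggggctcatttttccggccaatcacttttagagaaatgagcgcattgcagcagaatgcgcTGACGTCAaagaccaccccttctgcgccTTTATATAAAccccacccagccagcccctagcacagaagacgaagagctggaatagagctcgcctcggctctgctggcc

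Rian, the next maternal transcript of the domain and a host of small nucleolar RNAs, was higher in cKO. It measured 363 and 294 FPKM in cKO 1 and cKO 2, against 263 and 228 FPKM in Ctrl 1 and Ctrl 2 (chromosome 12, 110842155 to 110899921 on mm9). Both cKO libraries lay above both Ctrl libraries. The means were 328 ± 48.9 FPKM in cKO and 245 ± 24.8 FPKM in Ctrl (SD, n = 2 each), 1.34-fold higher in cKO, with a log2 difference of 0.42 ± 0.22 (SE). The ratio of Rian to Meg3 was 0.892 and 0.618 in cKO, against 0.621 and 0.571 in Ctrl, so that cKO 1 stood apart and cKO 2 lay between the Ctrl libraries.

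Mirg, the host of a microRNA cluster at the far end of the maternal transcripts, overlapped between the groups. It measured 21.3 and 15.9 FPKM in cKO 1 and cKO 2, against 14.8 and 21.9 FPKM in Ctrl 1 and Ctrl 2 (chromosome 12, 110973191 to 110987667 on mm9). The log2 difference of 0.03 ± 0.17 (SE) became -0.24 without Ctrl 1 and 0.30 without Ctrl 2. Mirg amounted to 0.0524 and 0.0334 of Meg3 in cKO, against 0.0350 and 0.0549 in Ctrl. Of the 3 maternal RNAs, Rian alone was higher in both cKO libraries, and Meg3 and Mirg overlapped.

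The tables also list short rows inside these host genes. Mirg has 9 of 66 to 90 bases, microRNA hairpins, of which 2 were at 0 in every library and 1 was above 0 in every library, and Rian has 5 of 30 to 120 bases, of which none was above 0 in every library. The hairpin above 0 throughout was Mir3072, at 304 and 347 FPKM in cKO 1 and cKO 2, against 618.03 and 646 FPKM in Ctrl 1 and Ctrl 2. FPKM of so short a row rests on few fragments and cannot separate the hairpin from its host, and libraries of this kind do not measure mature microRNAs. Its mature RNAs, from RefSeq on GRCm38.p6 (chr12:109747893-109747914 and chr12:109747928-109747949, plus strand), are shown with the seed, bases 2 to 8, in capitals.
mmu-miR-3072-5p: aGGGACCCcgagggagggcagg
mmu-miR-3072-3p: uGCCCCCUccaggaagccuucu

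Snhg11 was somewhat higher in cKO. It measured 287 and 325 FPKM in cKO 1 and cKO 2, against 270 and 236 FPKM in Ctrl 1 and Ctrl 2 (chromosome 2, 158201374 to 158211881 on mm9). The groups did not overlap, although the gap from cKO 1 to Ctrl 1 was smaller than the gap within either group. The means were 306 ± 26.8 FPKM in cKO and 253 ± 24.1 FPKM in Ctrl (SD, n = 2 each), 1.21-fold higher in cKO, with a log2 difference of 0.28 ± 0.22 (SE). Snhg11 and Rian did not differ in level beyond their spread in either group.

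The summed neuron markers were higher in cKO, as Rian and Snhg11 were. The 12 listed markers summed to 3341 and 2818 FPKM in cKO 1 and cKO 2, against 2374 and 2323 FPKM in Ctrl 1 and Ctrl 2, and none was at 0. In 7 of the 12 both cKO libraries lay above both Ctrl libraries, beside 24.3% of all genes, and the others overlapped. All 12 had a log2 difference above 0, with a median of 0.29, and 1, Slc32a1, passed the limma test upward, though not without Ctrl 1, Ctrl 2 or cKO 1, or with median-of-ratios or common-sum scaling. The share past the threshold was 8.33%, beside 10.7% over all genes. The part of neurons in the Rian and Snhg11 values was not tested.

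Miat overlapped between the groups, with a wider spread in cKO. It measured 41.4 and 54.9 FPKM in cKO 1 and cKO 2, against 46.4 and 44.2 FPKM in Ctrl 1 and Ctrl 2 (chromosome 5, 112642248 to 112657968 on mm9). Both Ctrl libraries lay between the cKO libraries, and the log2 difference was 0.07 ± 0.17 (SE). The transcript NR_003718 of 8716 bases made up 92.6% and 96.9% of the sum in cKO, against 91.9% and 99.9% in Ctrl. The other, NR_033657 of 8760 bases, measured 3.05 and 1.71 FPKM in cKO, against 3.77 and 0.0280 FPKM in Ctrl. The ratio of Miat to Meg3 was the steadiest of those computed, at 0.102 and 0.115 in cKO and 0.110 and 0.111 in Ctrl.

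Tests were read for genes that are not among the 7, from a limma fit over all 12913 genes with Benjamini-Hochberg adjusted p below 0.05. In this fit 1378 genes (10.7%) differed, 533 (4.13%) higher and 845 (6.54%) lower in cKO. With no filter on low values, 1 gene passed, and 3120 had an unadjusted p below 0.05, so no call named below was made without the filter. In the words that follow, rose and fell refer to cKO relative to Ctrl in this fit.

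Distances were taken from the measured Neat1 transcript, which lies 39.6 kb from Malat1, not from the long form, which ends nearer to it. Around Neat1 and Malat1, 18 genes within 200 kb could be tested, and 2 fell and none rose (limma, with 3 lower and 1 higher at an unadjusted p below 0.05). Slc25a45, a mitochondrial carrier family gene, measured 1.65 and 1.23 FPKM in cKO, against 2.57 and 3.90 FPKM in Ctrl (log2 difference -0.78 ± 0.16 SE, limma adjusted p = 0.00104). Cdc42ep2, a CDC42 effector, measured 17.05 and 15.4 FPKM in cKO, against 24.5 and 27.0 FPKM in Ctrl (-0.63 ± 0.16 SE, limma adjusted p = 0.00516), and did not pass without cKO 2 (adjusted p = 0.0566). Both lie on the Neat1 side of the pair, 33.0 and 72.1 kb from Neat1. Frmd8, the nearest neighbour at 5.50 kb, measured 11.5 and 16.3 FPKM in cKO, against 17.5 and 21.8 FPKM in Ctrl, and did not pass (-0.48 ± 0.17 SE, limma adjusted p = 0.0523). Of the genes within 200 kb of Neat1, 6 of 7 beyond its far side had a difference below 0, and 7 of 9 on the Malat1 side had a difference above 0. Some of these differences were near 0. Over all genes 50.5% had a difference below 0, and the split between the sides was not tested. The share that fell, 2 of 18, is read beside 6.54% over all genes.

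**Figure D3:**
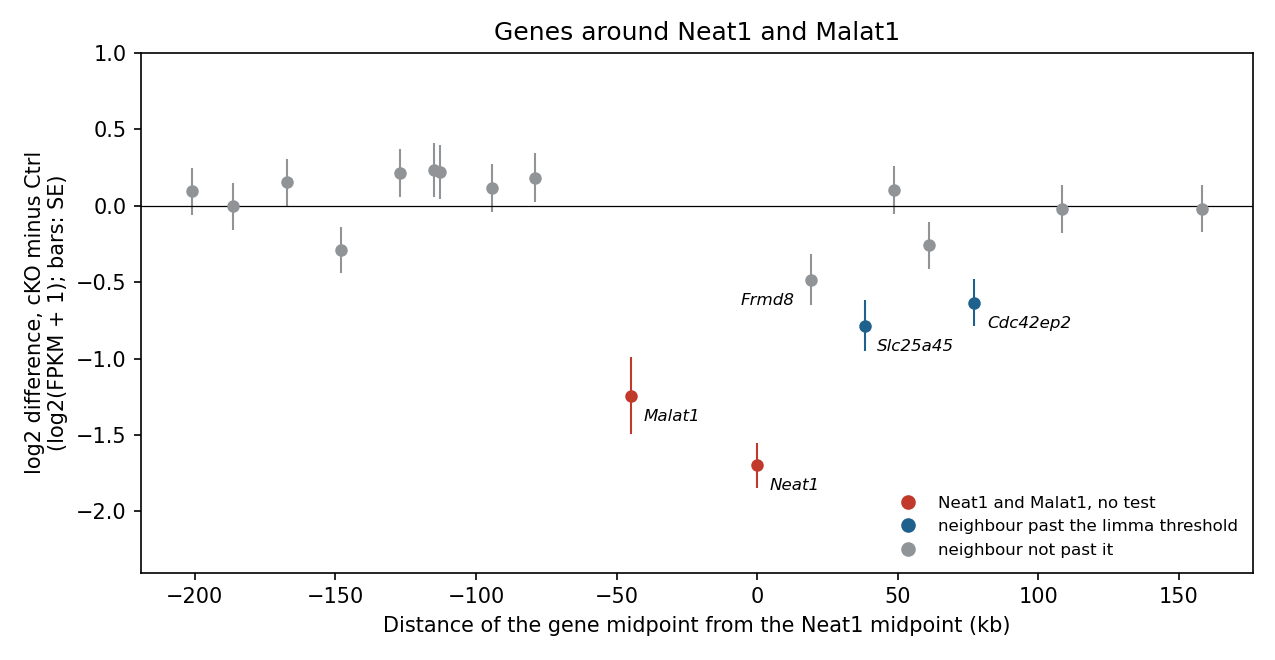
Log2 difference, cKO minus Ctrl on log2(FPKM + 1), with its SE, for Neat1, Malat1 and the 16 tested genes within 200 kb of Neat1, against the distance of each gene's midpoint from the Neat1 midpoint in kb. Slc25a45 at -0.78 and Cdc42ep2 at -0.63 pass the limma threshold, and the genes on the Malat1 side lie near 0.

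Near the other members few genes could be tested. Near Meg3, Rian and Mirg 1 of 2 passed (50%). The counts were 1 of 7 (14.3%) near Miat and 1 of 3 (33.3%) near Snhg11, beside 10.7% over all genes. With so few genes tested, nothing is read from these shares. Between Meg3 and Rian, 6430411K18Rik fell, at 3.65 and 3.91 FPKM in cKO, against 5.15 and 6.40 FPKM in Ctrl (-0.50 ± 0.15 SE, limma adjusted p = 0.0285). It lies inside Rtl1, and the labels do not say that the libraries mark strand, without which the reads of the pair cannot be told apart. It did not pass without Ctrl 2, cKO 1 or cKO 2, or with values scaled by median of ratios or to a common sum, with adjusted p up to 0.32. Near Miat 1 of 7 tested genes rose: Asphd2, 156 kb away, at 28.9 and 25.7 FPKM in cKO, against 17.7 and 20.2 FPKM in Ctrl (0.51 ± 0.16 SE, limma adjusted p = 0.0304); it did not pass without Ctrl 1 or cKO 1 (highest adjusted p = 0.405) or with a common sum. Crybb1, the nearest tested gene there, measured 3.68 and 3.795 FPKM in cKO, against 3.34 and 4.87 FPKM in Ctrl. Near Snhg11 1 of 3 tested genes fell: D630003M21Rik, 146 kb away, at 1.37 and 1.49 FPKM in cKO, against 2.43 and 3.17 FPKM in Ctrl (-0.64 ± 0.16 SE, limma adjusted p = 0.00539; 0.118 without cKO 1). The nearest on either side of Snhg11, 9430008C03Rik and Ralgapb, overlapped between the groups.

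Few other genes of the Dlk1-Dio3 domain and its flanks passed. Of 10 listed genes found, 7 were tested, 1 rose and none fell (limma; 1 higher and none lower at an unadjusted p below 0.05), 14.3% beside 10.7% over all genes, with a median log2 difference of 0.10. The gene that rose was Begain, which encodes a postsynaptic protein, at 66.7 and 53.6 FPKM in cKO, against 32.9 and 45.9 FPKM in Ctrl (0.61 ± 0.18 SE, limma adjusted p = 0.0209). It did not pass without Ctrl 1 or without cKO 1 (adjusted p = 0.36), or with values scaled to a common sum. Dlk1, the paternally expressed ligand-like gene, measured 7.76 and 7.45 FPKM in cKO, against 7.52 and 9.27 FPKM in Ctrl, a log2 difference of -0.12 ± 0.15 (SE). Rtl1, Dio3 and Dio3os were under 1 FPKM in every library. Wars, Wdr25, Ppp2r5c, Slc25a29 and Slc25a47 had differences from -0.13 to 0.32 and did not pass.

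Other imprinted genes differed in both directions. Of 30 tested, 3 rose and 4 fell, 23.3% beside 10.7% over all genes, with a median of 0.11. Without Ctrl 2 none rose and 4 fell, without cKO 1 none rose and 2 fell, and without Ctrl 1 the counts were 1 and 2 (limma). Nnat, a neuronal proteolipid gene expressed from the paternal allele, measured 411 and 312 FPKM in cKO, against 199.5 and 205 FPKM in Ctrl (0.82 ± 0.22 SE, limma adjusted p = 0.0120), and did not pass without Ctrl 1, Ctrl 2 or cKO 1 (highest adjusted p = 0.22). Igf2 and H19, a neighbouring growth factor gene and noncoding RNA, fell: Igf2 measured 8.87 and 7.10 FPKM in cKO, against 26.7 and 11.4 FPKM in Ctrl, and H19 measured 1.85 and 2.02 FPKM in cKO, against 4.01 and 3.67 FPKM in Ctrl. Cdkn1c, a cell cycle inhibitor, fell as well, at 19.4 and 26.2 FPKM in cKO, against 32.5 and 45.2 FPKM in Ctrl (limma adjusted p = 0.00341), and did not pass without Ctrl 2 or cKO 1 (highest adjusted p = 0.196). Igf2 did not pass without Ctrl 1, with robust moderation or with a common sum. It is also 1 of the 6 markers of meninges and fibroblasts, of which 5 fell, 2 without Ctrl 1 and 1 with robust moderation, and the part of these cells in the Igf2 and H19 values was not tested.

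Among genes of paraspeckle proteins, which assemble on Neat1, few passed. Of 32 tested, none rose and 1 fell (limma; none higher and 2 lower at an unadjusted p below 0.05), 3.13% beside 10.7% over all genes, and the median was -0.05. Fam98a, an RNA-binding protein gene, measured 16.6 and 16.0 FPKM in cKO, against 23.5 and 23.1 FPKM in Ctrl (-0.49 ± 0.15 SE, limma adjusted p = 0.0334), and did not pass when any 1 library was left out (highest adjusted p = 0.216). The core proteins of the paraspeckle did not pass: Sfpq measured 44.9 and 47.1 FPKM in cKO, against 63.6 and 57.9 FPKM in Ctrl, Nono 53.6 and 49.2 FPKM in cKO against 55.5 and 51.8 FPKM in Ctrl, and Pspc1 20.2 and 20.4 FPKM in cKO against 20.6 and 17.9 FPKM in Ctrl.

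Of genes of nuclear speckles and splicing, the compartment of Malat1, few passed. Of 40 tested, none rose and 3 fell (limma; none higher and 7 lower at an unadjusted p below 0.05), 7.5% beside 10.7% over all genes. A log2 difference below 0 was found in 35 of 40 (87.5%), beside 50.5% of all genes, with a median of -0.15 beside -0.003, and this lean was not tested. Clk1, a kinase of splicing factors, measured 18.4 and 17.1 FPKM in cKO, against 38.4 and 37.6 FPKM in Ctrl (-1.06 ± 0.16 SE, limma adjusted p = 7.93e-06). Clk4, its paralog, measured 13.2 and 13.8 FPKM in cKO, against 22.1 and 20.9 FPKM in Ctrl (limma adjusted p = 0.00434; 0.094 without cKO 1). Tra2a, a splicing regulator, measured 30.0 and 28.8 FPKM in cKO, against 44.2 and 42.0 FPKM in Ctrl (limma adjusted p = 0.0252), and did not pass when any 1 library was left out. Without cKO 1, 1 gene of the list fell.

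Of the 3 splicing factors listed as partners of Miat, 1 fell and none rose, 33.3% beside 10.7% over all genes (limma, with none higher at an unadjusted p below 0.05). Qk, which encodes the QK proteins that bind ACTAAC and act in oligodendrocytes, measured 79.4 and 132 FPKM in cKO, against 205 and 173 FPKM in Ctrl (-0.87 ± 0.21 SE, limma adjusted p = 0.00507). It did not pass without Ctrl 1 or without cKO 1 (highest adjusted p = 0.345). Sf1, the branch point binding protein, measured 28.3 and 30.6 FPKM in cKO, against 25.5 and 28.4 FPKM in Ctrl, and Celf3, a neuronal splicing factor, 9.75 and 8.86 FPKM in cKO, against 7.30 and 7.56 FPKM in Ctrl; neither passed. Qk was lowest in cKO 1, as Malat1 and the sum of the myelinating oligodendrocyte markers were.

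Set among other long noncoding RNAs, Neat1 was among the RNAs with the most negative differences. Of 80 listed names, 49 were found and 32 were tested. Of these, 2 rose, Rpph1 and Rmst, and 6 fell, 25% beside 10.7% over all genes, and the median was 0.05. The share includes Rpph1, tested only through its cKO values, and H19, also counted among the imprinted genes. Nothing is read from this share. 9630013A20Rik, a noncoding RNA of differentiating oligodendrocytes, measured 8.63 and 12.4 FPKM in cKO, against 44.4 and 33.0 FPKM in Ctrl (-1.79 ± 0.17 SE, limma adjusted p = 6.85e-10). Sox2ot, whose gene overlaps Sox2, measured 5.24 and 7.38 FPKM in cKO, against 23.5 and 19.8 FPKM in Ctrl (-1.64 ± 0.16 SE, limma adjusted p = 1.23e-09). These are the differences nearest to that of Neat1 in the list. Zfhx2as, an antisense RNA whose reads cannot be told apart from those of Zfhx2 without strand, measured 2.07 and 2.55 FPKM in cKO, against 5.64 and 5.05 FPKM in Ctrl. Snhg3, H19 and B230206F22Rik, the Ftx RNA, fell too, by 0.54 to 0.72 on the log2 scale; Snhg3 did not pass without Ctrl 2, and B230206F22Rik did not pass without cKO 1 or with another scaling.

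Rpph1, the RNA subunit of RNase P, measured 6.22 and 3.60 FPKM in cKO, against 0.320 FPKM in Ctrl 1 and 0 in Ctrl 2, the shallowest library. It reached a mean of 1 FPKM through the cKO libraries alone, so it had to differ to be tested, and its call is no support for a direction. Rmst, a noncoding RNA of neural progenitors, measured 4.55 and 3.82 FPKM in cKO, against 3.02 and 2.01 FPKM in Ctrl (limma adjusted p = 0.0152), and did not pass without Ctrl 2 or cKO 1 or with another scaling. The other listed small nucleolar RNA hosts, Snhg1, Snhg4, Snhg6, Snhg7, Snhg8, Snhg10, Snhg12, Gas5, 9430008C03Rik (Snhg17), LOC100616095 (Snhg18) and 2810008D09Rik (Snhg20), did not pass. Their differences ran from -0.24 for Snhg8 to 0.52 for 2810008D09Rik, beside 0.28 for Snhg11. Among the 299 tested genes with noncoding accessions other than the 7, 19 rose and 36 fell (18.4%), beside 514 and 807 of 12608 genes with coding accessions (10.5%). Some of these noncoding genes, like Rpph1, reached a mean of 1 FPKM through 1 group alone. BC002163, for example, measured 0.425 and 0.578 FPKM in cKO, against 37.3 and 52.5 FPKM in Ctrl. Xist is also among those that fell. Such genes were not counted in either class, so nothing is read from these shares.

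**Figure D4:**
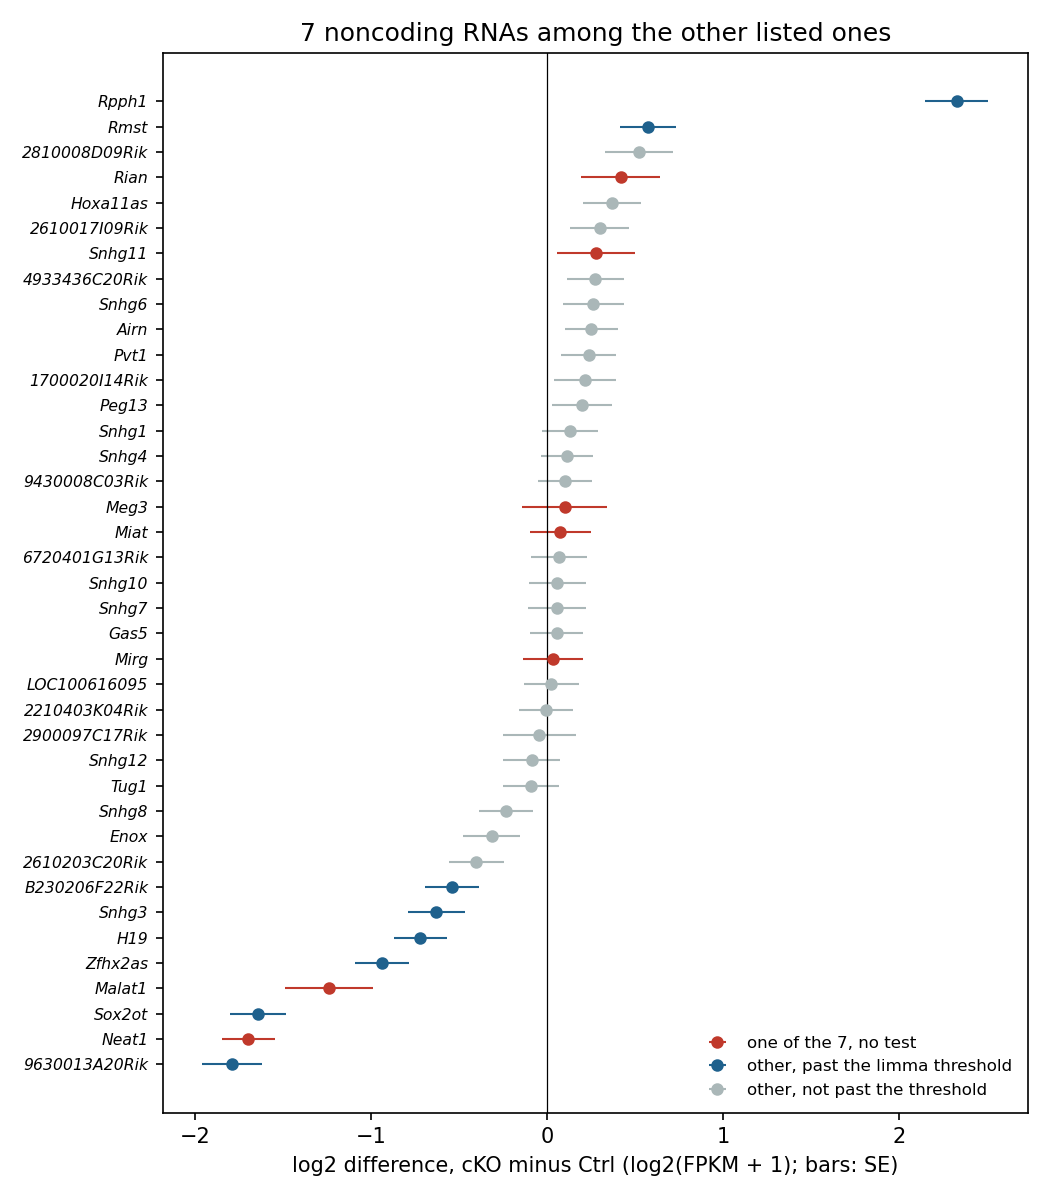
Log2 difference, cKO minus Ctrl on log2(FPKM + 1), with its SE, for the 7 genes (red, not tested) and the 32 other long noncoding RNAs tested, ordered by difference (blue, past the limma threshold; grey, not past it). Neat1 at -1.70 lies between 9630013A20Rik at -1.79 and Sox2ot at -1.64, Malat1 at -1.24 comes next, Rpph1, tested only through its cKO values, stands at the top, and the other 5 genes lie from 0.03 to 0.42.

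The genes with the most similar course over the 4 libraries were sought for Neat1, Malat1 and Meg3 among 8936 genes with a mean of at least 5 FPKM, by the Euclidean distance between log2(FPKM + 1) values centred on their mean. For Neat1 they were Gpr17 (distance 0.24), a receptor of cells entering oligodendrocyte differentiation, H2-Bl (0.30), an MHC class I gene, and Sox2ot (0.34). Gpr17 measured 32.9 and 39.4 FPKM in cKO, against 107 and 114 FPKM in Ctrl. For Malat1 they were 4833423E24Rik (0.19), Enpp6 (0.28), a choline phosphodiesterase gene of oligodendrocytes, and Mobkl2b (0.35). Enpp6 measured 10.2 and 22.1 FPKM in cKO, against 37.2 and 29.7 FPKM in Ctrl, lowest in cKO 1 and highest in Ctrl 1 as Malat1 was. For Meg3 they were Arhgap21 (0.019), Mxd4 (0.030) and Cbr4 (0.034), whose values hardly varied. With 4 libraries, such likeness is a description of these libraries.

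**Figure D5:**
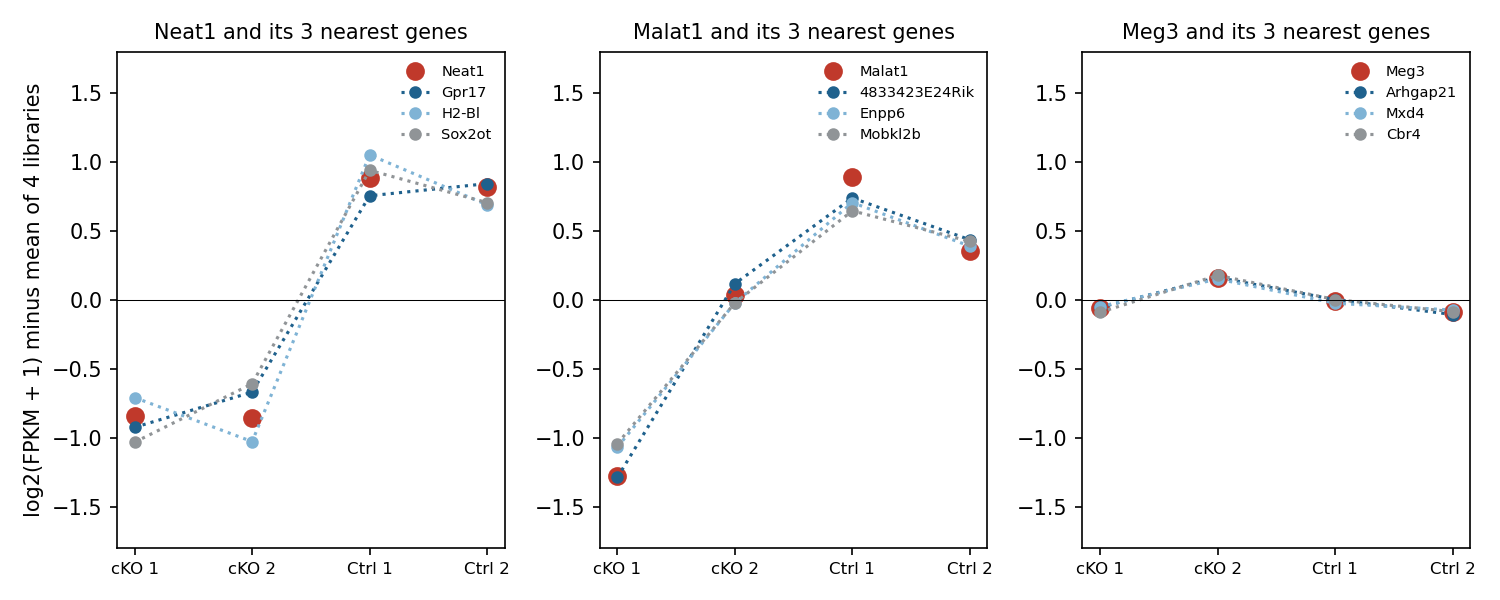
Log2(FPKM + 1) minus the mean of the 4 libraries for Neat1, Malat1 and Meg3 (large red points) and the 3 genes nearest to each (small points), with cKO libraries left of Ctrl libraries. The Neat1 group is low in both cKO libraries, the Malat1 group is lowest in cKO 1 and intermediate in cKO 2, and the Meg3 group stays near 0; dotted lines only link points of 1 gene.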

How the data were processed

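Per the file headers, the deposited tables hold FPKM in the layout of Cufflinks, and beside it a signal column named coverage, the authors' mean depth over the transcript's bases. The submitters' processing notes name CASAVA, TopHat, Cufflinks and Cuffdiff and the build mm9, without versions. Each of 4 tables has 28107 RefSeq transcripts, of which 315 had a status other than OK in some library and were left out. FPKM of transcripts of at least 300 bases was summed per symbol. Gene sums with a mean of at least 1 FPKM were tested as log2(FPKM + 1) with limma 3.58.1 in R 4.3.3 (empirical Bayes with a mean-variance trend, Benjamini-Hochberg threshold 0.05, cKO minus Ctrl), after a test on simulated data. The spread had 36.3 prior and 2 residual degrees of freedom, so it is mostly pooled over genes. Read totals are not given, so no counting interval is given. Alternatives were another pseudocount, no filter, 2 scalings, all transcripts, other moderation, single transcripts, a replicate block and leaving out each library. Groups and replicate numbers come from the sample titles, and nothing in the labels pairs the libraries.

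The 7 genes and all lists were chosen with earlier results of these data known. Named were the 7 genes, of each list up to 4 genes past the threshold by smallest p (all of the Dlk1-Dio3 and Miat partner lists), neighbours within 200 kb past the threshold and the nearest ones, and the 3 genes nearest in course. Cell type marker lists are given as sums and counts, with a few of their genes named. A neighbour that the rule names is not reported here. Sfpq, Nono, Pspc1, Pdgfra, Cspg4, Ptprz1 and Gfap were named outside this rule, after their values were seen. So were Chd7, Xist, Mir3072, Snhg3, Rmst, B230206F22Rik and the other small nucleolar RNA hosts. Sequences came from GENCODE M21 on GRCm38 and RefSeq tables on GRCm38.p6, and no coordinate was converted between builds.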

Additional observations from a re-analysis of the deposited data

How the results depend on the processing

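The counts of genes past the threshold depended strongly on the fit (533 higher and 845 lower in cKO as reported). They were 1 higher and 0 lower by limma with no filter on low values, where 1281 higher and 1839 lower had an unadjusted p below 0.05, and the prior degrees of freedom fell to 0.858. They were 23 and 30 with all rows of a symbol summed, 5 and 13 for single transcripts, and 204 and 460 with values scaled to a common sum. Leaving out 1 library gave 111 to 557 higher and 274 to 919 lower, with the lowest counts without cKO 1. Same-numbered libraries did not deviate together (correlation -0.241), the numbers pair nothing in the labels, and the replicate block gave 351 higher and 645 lower. A block with the numbers crossed, added after this correlation was seen, gave 943 higher and 1235 lower.

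For the other long noncoding RNAs (2 higher, 6 lower) the counts were 0 and 0 by limma with no filter (1 higher and 8 lower at an unadjusted p below 0.05), 1 and 2 with all rows, 1 higher and 5 lower with either other scaling, and 1 to 3 higher and 5 to 6 lower with a library left out. For the other lists together, with the cell type marker lists not included, the counts were 4 higher and 9 lower. The higher count was 2 with a common sum and 1 with the replicate block, and the lower count was 15 with the crossed block. Both counts also depended on which library was left out. The causes were not tested.

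The differences of Neat1, Malat1, Rian and Snhg11 kept their sign under every alternative run. The groups of these genes did not overlap, so leaving out a library could not change the sign. The kept sign is therefore no added support for a direction. Neat1 was -1.94 with a pseudocount of 0.1 and -1.73 to -1.67 with a library left out. Malat1 ranged from -1.90 to -0.59, Rian from 0.26 to 0.57 and Snhg11 from 0.18 to 0.37. Meg3, Miat and Mirg changed sign when a library was left out, with ranges of -0.01 to 0.21, -0.13 to 0.27 and -0.24 to 0.30. With 2 libraries a group, depths that differ up to 3.19-fold and no read totals, differences of low genes are the least certain.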
